A study of Mus musculus with 13 samples.

Results

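Connexins are the protein subunits of gap junctions. Of the 7 connexin genes described here, Gja1, Gja4, Gjb1, Gjb2, Gjb5, Gjb6 and Gjc1, all were found by their symbols among the 15213 genes of the count table, where each was compared between mammary tumors and normal mammary glands. Gja1 was higher in every tumor than in every gland, the low transcripts of Gjb1 and Gjb5 were also higher, Gja4 was lower, and Gjb2, Gjb6 and Gjc1 did not pass the test. The tumors had arisen in MMTV-tTA TetO-Tsg101 double transgenic females, in which the MMTV promoter directs the tetracycline transactivator, tTA, mainly to the luminal mammary epithelium, and tTA switches on an HA-tagged wild-type Tsg101 that shares its transcript with luciferase. The TetO-Tsg101 mice came from 1 founder line. The glands were taken from wild-type FVB females that carried neither transgene, so that the transgenes and the tumor state cannot be told apart, and the tumor-bearing females were on the FVB background too. The 10 tumors came from 6 females, with tumors 2 and 3 from the same mouse, tumors 5 and 6 from another, and tumors 8, 9 and 10 from another, whereas the 3 glands were those of 3 mice. The reproductive stage and age of the gland donors are not given in the sources used here.

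Connexin proteins assemble in rings to form a hemichannel, and hemichannels of adjacent cells dock to form a channel through which ions, second messengers and small metabolites pass. In the mammary gland, Cx43, the product of Gja1, is best known from the basal, myoepithelial layer, while Cx26 (Gjb2), Cx30 (Gjb6) and Cx32 (Gjb1) belong to the luminal secretory cells and are known for their rise in pregnancy and lactation. Cx37 (Gja4), Cx40 (Gja5) and Cx45 (Gjc1) are connexins of the blood vessel wall, and Cx31.1 (Gjb5) is one of stratified epithelia. TSG101, a subunit of the ESCRT-I sorting complex, is known to bind connexins and to take part in their degradation, which is a step after transcription that transcript levels do not show.

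Transcript levels are given in normalized cpm, which are the authors' counts of reads scaled by an effective size of each library. The libraries held 6176269 to 16835397 reads in the tumors and 11672487 to 23889042 reads in the glands, so that a floor of 3 reads, below which a count of 0 cannot be told from a low level, corresponded to 0.141 to 0.683 normalized cpm in a tumor and to 0.128 to 0.366 in a gland. Tsg101 itself, whose row does not separate endogenous from transgenic reads, ranged from 49.9 to 101 normalized cpm in tumors and was at 45.6, 53.0 and 61.0 in the glands, with a log2 fold change of 0.30 (SE 0.20) that did not pass the test (limma, adjusted p = 0.296). Ribosomal RNA of the Rn45s gene made up 0.456% to 27.4% of the reads in the tumors, with tumor 9 the highest, and 0.296% to 4.35% in the glands. The milk genes (6 listed) were lower in all tumors, which held 1309 to 49195 normalized cpm of them in sum, than in the glands, which held 117394 to 175636. The adipocyte genes (6 listed) summed to 12.0 to 369 in tumors and to 3201 to 10694 in glands. Tumor and gland libraries thus differed in markers of several cell types, and in whole tissue fewer cells of a type and less RNA per cell cannot be told apart. A gene was counted as changed where limma gave a false discovery rate below 0.05 and a difference of more than 2-fold, that is, a log2 fold change beyond 1.

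Among the 7 connexins, 3 were higher in the tumors (Gja1, Gjb1 and Gjb5), 1 was lower (Gja4) and 3 did not pass the test. For comparison, 20.6% of all 15213 listed genes passed it without a filter on low values, 10.5% upwards and 10.1% downwards, and the median log2 fold change was -0.17 over the 7 genes and 0.01 over all listed genes. Of the 7, only Gja1, Gjb2 and Gjb6 passed the filter of the study, which asks for more than 5 in at least 7 of 13 libraries. Past that filter, 17.2% of 11795 genes were changed, 10.2% upwards and 6.99% downwards. Gja4, Gjb1, Gjb5 and Gjc1 were below it, and their values come from the same fit without the filter.

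**Figure D1:**
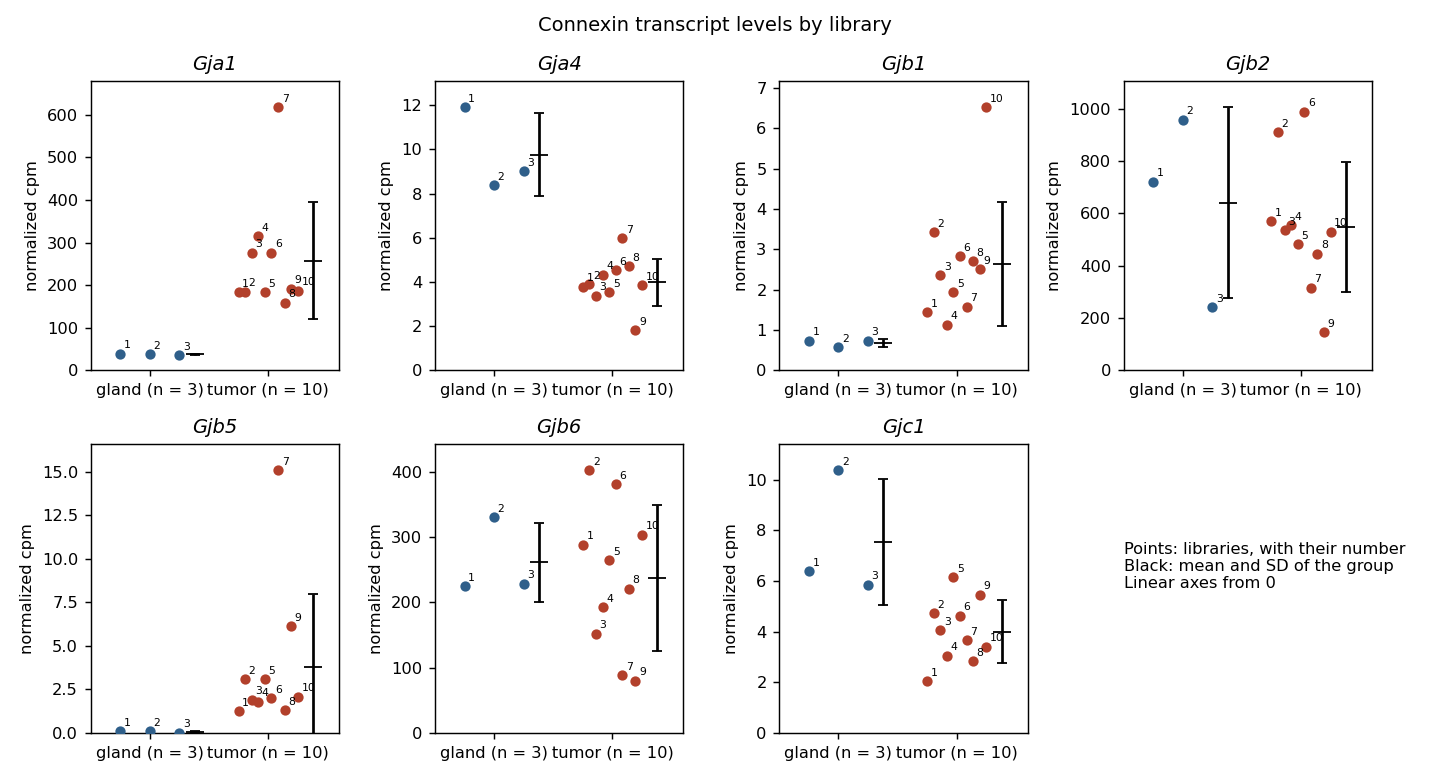
Normalized cpm (linear axes from 0) of the 7 connexins in each library, with glands in blue, tumors in red and the library number beside each point. Black marks give the mean and SD of 3 glands and 10 tumors, and the lower end of the SD of Gjb5 in the tumors is cut at 0. Gja1, Gjb1 and Gjb5 lie higher in all tumors than in any gland, and Gja4 lies lower in all tumors.

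**Figure D2:**
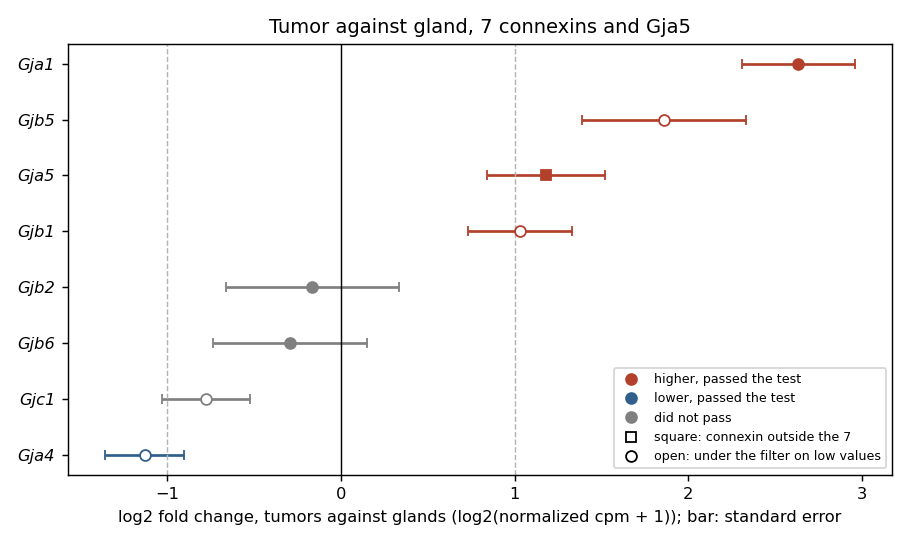
Log2 fold change between tumors and glands with its standard error for the 7 connexins (circles) and for Gja5 (square), with open symbols for genes under the filter on low values. Dashed lines mark a 2-fold difference, and the order runs from Gja1 at 2.64 to Gja4 at -1.13.

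Gja1 (Entrez 14609) codes for Cx43, the most widespread gap junction protein, and lies at chr10:56377300-56390419 on the plus strand of GRCm38.p6. Tumors 1 to 10 had 183, 184, 276, 314, 183, 276, 618, 158, 192 and 187 normalized cpm, while the glands had 38.5, 37.5 and 35.1. The groups did not overlap, since the lowest tumor, tumor 8, was still well above the highest gland, and tumor 7 stood above all other tumors. Over all listed genes, 21.7% had groups that did not overlap, 11.4% with all 10 tumors above all 3 glands and 10.3% with all of them below. The tumor mean of Gja1, 257 ± 137 (SD, n = 10), was 6.94 times the gland mean of 37.0 ± 1.74 (SD, n = 3). On the log2(normalized cpm + 1) scale the log2 fold change was 2.64 (SE 0.33, limma adjusted p = 3.20e-05), and without tumor 7 it was 2.48. The 3 tumors of the same mouse, tumors 8 to 10, lay within 1.21-fold of each other.

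The sequence around the start of the Gja1 transcript is shown because this abundant connexin was higher in every tumor than in every gland. The window of 300 bases at chr10:56377050-56377349 (RefSeq, GRCm38.p6, plus strand, 250 bases before the start site and 50 from it on) is printed 5′ to 3′, and capitals mark a match to TGANTCA, the binding motif of AP-1 factors, which begins 19 bases before the start site.
Gja1: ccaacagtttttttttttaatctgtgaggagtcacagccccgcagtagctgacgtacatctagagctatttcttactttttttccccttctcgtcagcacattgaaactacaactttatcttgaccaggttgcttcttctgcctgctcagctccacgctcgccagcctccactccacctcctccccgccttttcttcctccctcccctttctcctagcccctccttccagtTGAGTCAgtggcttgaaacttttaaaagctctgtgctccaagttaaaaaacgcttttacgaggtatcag
Both strands of each window were searched for TGANTCA, for TATAAA (the TATA box), for GGGCGG (the GC box) and for CTTTGAT (the core of the TCF/LEF motif). TGANTCA was found in 7.81% of the 32851 promoter windows of the mouse genome, TATAAA in 13.6%, GGGCGG in 35.7% and CTTTGAT in 3.73%. The window of Gja1 holds none of the other 3 motifs. Such a match is a description of the letters and does not show that a factor binds there.

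The basal and myoepithelial markers did not move as a group. Of 6 markers, Krt5, Krt14 and Trp63 were higher in the tumors and Acta2, Oxtr and Mylk, which serve contraction and its control by oxytocin, were lower. The 6 together reached 745 to 2971 normalized cpm in a tumor, with tumor 7 the highest, and 654 to 1876 in a gland. The sum pools markers that moved in opposite directions. In the tumors it was mostly made up of Krt5, Krt14 and Trp63, since Acta2, Oxtr and Mylk reached at most 57.1, 12.6 and 47.0. Correlations with the sum over the tumors thus say little about the latter 3 markers. Krt5 had 275 to 1221 normalized cpm in the tumors against 78.7, 126 and 33.3 in the glands, Trp63 had 110 to 298 against 23.8, 28.6 and 23.2, and Krt14 had 216 to 1358 against 122, 192 and 118, so that each of these 3 separated the groups as Gja1 did. Across the 10 tumors, Gja1 varied with this sum with a Pearson r of 0.92 and a Spearman rho of 0.70, where all correlations are on the log2(normalized cpm + 1) scale. The r was 0.87 without the 2 tumors farthest from the median sum, and 0.97 over the means of the 6 mice. The pair was chosen after its values were seen, the tumors share mice and libraries, and the part of the basal cells in the level of Gja1 was not tested. With the squamous markers, the r of Gja1 was 0.80 over 10 tumors and 0.15 without the 2 farthest, tumors 3 and 7, so that this relation rested on those tumors. Among 11794 other genes, Sdc1 and Ybx3 were among the 3 whose values followed Gja1 most closely over the 10 tumors, each with an r of 0.96. Sdc1, the gene of the cell surface proteoglycan syndecan-1, was itself higher in the tumors (log2 fold change 2.74, limma adjusted p = 1.96e-05), whereas Ybx3 did not pass the test with 0.43 (adjusted p = 0.0930).

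Gjb2 (Entrez 14619, chr14:57098602-57104702, minus strand) and Gjb6 (Entrez 14623, chr14:57123301-57133611, minus strand) code for the luminal connexins Cx26 and Cx30 and are next to each other within 35.0 kb. Gjb2 was lowest in tumor 9 with 145 normalized cpm, had a median of 533 and was highest in tumor 6 with 988, and the glands had 721, 958 and 241. The tumors covered the whole range of the glands, whose wide spread came from gland 3, the gland library with the fewest reads (11672487) and the highest share of Rn45s (4.35%). Tumors averaged 548 ± 249 (SD, n = 10) and glands 640 ± 365 (SD, n = 3), and with a log2 fold change of -0.17 (SE 0.50) Gjb2 did not pass the test (limma, adjusted p = 0.837). Without gland 3 the log2 fold change was -0.76 (limma adjusted p = 0.260), and without gland 1 or gland 2 it was 0.028 or 0.23 (adjusted p = 0.987 and 0.852). Gjb6 was lowest in tumor 9 with 79.9 normalized cpm, had a median of 243 and was highest in tumor 2 with 403, and the glands had 225, 330 and 228. Here too the groups overlapped, with 2 tumors above all glands and 5 tumors below. The means of Gjb6 were 237 ± 112 (SD, n = 10) and 261 ± 59.9 (SD, n = 3), with a log2 fold change of -0.29 (SE 0.44, limma adjusted p = 0.672). Neither value shows that the levels were equal, since the standard errors leave room for differences in both directions.

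Within the tumors, Gjb2 and Gjb6 varied together. Over the 10 tumors their Pearson r was 0.88 and their Spearman rho 0.77, with an r of 0.81 without the 2 tumors farthest from the median of Gjb2 and of 0.84 over the 6 mouse means. In the same libraries, Gjb2 and Gja1 had an r of -0.09, whose sign rested on single tumors, since it was 0.28 without tumor 7, 0.31 without tumors 4 and 7 and -0.43 over the mouse means. The summed level of the 6 milk genes, such as Csn2 (beta-casein) and Lalba (alpha-lactalbumin), had an r of 0.86 with Gjb2 and of 0.90 with Gjb6 over the tumors, with a rho of 0.70 and 0.85. For Gjb2 this was not particular to the milk genes, since its r was 0.87 with the pan-epithelial sum, 0.81 with the luminal sum and 0.79 with the nerve and glia sum. The r of Gjb6 with these 3 sums was 0.70, 0.77 and 0.60. Without the 2 tumors farthest from the median of the milk genes, tumors 6 and 9, these r were 0.66 and 0.86, and over the mouse means 0.81 and 0.84. Between the groups the milk genes and the 2 connexins went apart, because all 6 milk genes were lower in the tumors, with a median log2 fold change of -4.23, whereas Gjb2 and Gjb6 did not pass the test. The genes that followed Gjb6 most closely over the 10 tumors were Prpf4 (r 0.97), a splicing factor, Lalba (0.95) and Tle6 (0.94), and those of Gjb2 were Atp6v1c2 (0.98), a subunit of the vacuolar proton pump, Gm38426 (0.97) and Mrpl4 (0.97), a mitochondrial ribosomal protein. These pairs were also chosen after the values were seen, and tumor 9, the lowest of both connexins and of the milk genes, was the library with the largest share of Rn45s reads.

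The promoter windows of this pair of neighbours, whose transcripts followed each other over the tumors, differ in their composition. They are given 5′ to 3′ on the minus strand of GRCm38.p6 (RefSeq), at chr14:57104653-57104952 for Gjb2 and at chr14:57133562-57133861 for Gjb6, with 250 bases before the start site and 50 from it on, and capitals mark GGGCGG or its complement.
Gjb2: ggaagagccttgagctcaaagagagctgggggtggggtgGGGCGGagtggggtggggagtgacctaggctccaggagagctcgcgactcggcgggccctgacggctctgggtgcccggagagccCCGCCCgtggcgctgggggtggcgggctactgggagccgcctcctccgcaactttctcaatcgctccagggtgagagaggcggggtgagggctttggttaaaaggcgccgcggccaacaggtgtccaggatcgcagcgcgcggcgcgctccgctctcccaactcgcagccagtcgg
Gjb6: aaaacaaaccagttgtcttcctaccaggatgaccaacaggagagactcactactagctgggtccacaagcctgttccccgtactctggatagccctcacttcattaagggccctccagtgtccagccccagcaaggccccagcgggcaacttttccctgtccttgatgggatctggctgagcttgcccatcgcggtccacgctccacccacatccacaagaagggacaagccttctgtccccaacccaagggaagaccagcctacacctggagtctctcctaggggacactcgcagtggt
The window of Gjb2 has a GC content of 70.0% with 27 CpG dinucleotides and 2 matches to GGGCGG, 1 on each strand. The window of Gjb6 has a GC content of 57.3%, 6 CpG dinucleotides and none of the 4 motifs. The median over all windows was 52.7% GC and 7 CpG dinucleotides.

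**Figure D3:**
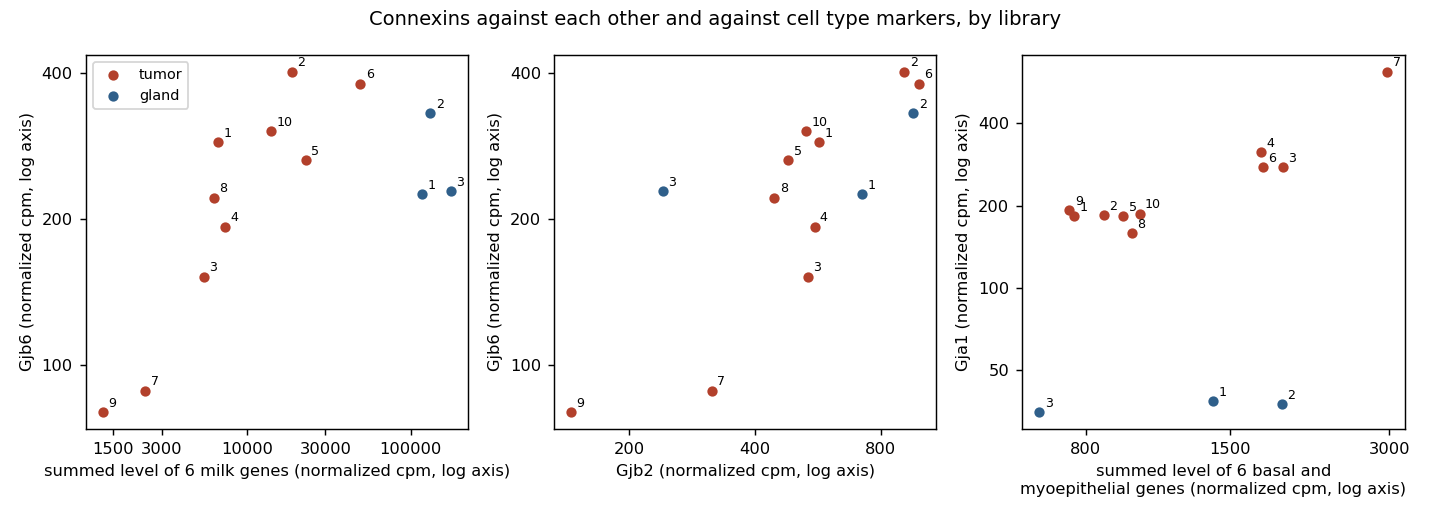
Levels in single libraries on log axes in normalized cpm, with tumors in red, glands in blue and the library number beside each point. Gjb6 is plotted against the summed level of 6 milk genes and against Gjb2, and Gja1 against the summed level of 6 basal and myoepithelial genes. In the tumors each pair rises together (r of 0.90, 0.88 and 0.92), while the glands lie apart from the tumors in the milk genes and in Gja1.

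Gjb1 (Entrez 14618, chrX:101376376-101385629, plus strand) codes for Cx32, the third luminal connexin, and was a rare transcript throughout. It ranged from 1.13 normalized cpm in tumor 4 over a median of 2.43 to 6.52 in tumor 10, and was at 0.728, 0.568 and 0.731 in the glands. All 10 tumors lay above the glands, but on few reads, with 11 to 44 reads in a tumor and 6 to 17 in a gland. The means of 2.64 ± 1.53 (SD, n = 10) and 0.676 ± 0.0934 (SD, n = 3) differed 3.91-fold, and the log2 fold change was 1.03 (SE 0.30, limma adjusted p = 0.0167), just past the limit of 2-fold. With each library left out in turn, the limma adjusted p of Gjb1 ran from 0.00884 to 0.0644, so that the p-value limit was missed as well. The call was lost without tumor 2, tumor 10, gland 1 or gland 2. The lowest of these log2 fold changes was 0.90, without tumor 10, and a lost call need not mean a smaller fold. The call was also lost when all libraries were scaled to pan-epithelial genes (0.89) and over mouse means (0.88). On the recovered reads the log2 fold change was larger, with 1.95 in edgeR (adjusted p = 0.00951) and 1.96 in DESeq2 (adjusted p = 0.000720).

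Gja4 and Gjb5 lie on the minus strand of chromosome 4 within 46.7 kb of each other and went in opposite directions, with Gja4 lower and Gjb5 higher in the tumors.

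Gja4 (Entrez 14612, chr4:127311420-127314039) codes for Cx37, a connexin of arterial endothelium. It was lowest in tumor 9 with 1.82 normalized cpm, had a median of 3.88 and was highest in tumor 7 with 5.98, while the glands had 11.9, 8.36 and 9.02. All tumors lay below all glands. The means were 3.98 ± 1.07 (SD, n = 10) and 9.76 ± 1.88 (SD, n = 3), so that Gja4 was 2.45-fold lower in the tumors, with a log2 fold change of -1.13 (SE 0.23, limma adjusted p = 0.00150). Without gland 1 it was -0.99 and, scaled by library size alone, -0.84, both within the 2-fold limit.

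The endothelial markers moved with Gja4 between the groups. Of 10 markers, 9 were lower in the tumors, with a median log2 fold change of -2.17, and they summed to 91.8 to 175 normalized cpm in a tumor and to 426 to 842 in a gland. Pecam1 and Cdh5, which code for adhesion molecules of endothelial cells, had log2 fold changes of -2.37 and -3.16 (limma, adjusted p = 2.95e-05 and 0.000330). When all libraries were scaled to these 10 markers, the direction of Gja4 turned and its log2 fold change was 0.76 (adjusted p = 0.0207), under the 2-fold limit, while the median of all genes moved to 2.15, so that Gja4 stayed below the median gene. Among the 10 tumors, Gja4 and the endothelial sum had an r of 0.29 and a rho of 0.30, and an r of 0.78 over the means of the 6 mice. The r of Gja4 over the tumors was higher with the basal and myoepithelial sum (0.62), the pan-epithelial sum (0.61) and the nerve and glia sum (0.59). Gja5, the gene of Cx40, which is also known from arterial endothelium, was higher in the tumors, at 2.96 to 13.7 normalized cpm against glands at 1.93, 2.27 and 2.32. The difference was 1.18 on the log2 scale (SE 0.34, limma adjusted p = 0.0174), and the call was lost without gland 1 (1.13, limma adjusted p = 0.0776) or gland 2 (1.21, adjusted p = 0.0525), with a difference of similar size. The ratio of Gja5 to Gja4 per kb of exon was 0.417 to 2.20 in the tumors and 0.0877, 0.147 and 0.139 in the glands. The groups could not overlap in it, since Gja5 was higher and Gja4 lower in every tumor than in every gland.

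Gjb5 (Entrez 14622, chr4:127354809-127358164) codes for Cx31.1, which is known from the epidermis. It was lowest in tumor 1 with 1.26 normalized cpm, had a median of 2.03, reached 6.15 in tumor 9 and was highest in tumor 7 with 15.1. The glands had 0.0856, 0.103 and 0, which are 2, 2 and 0 reads, so that all 3 were under the floor of 3 reads, while the tumors had 11 to 144 reads. With a tumor mean of 3.77 ± 4.23 (SD, n = 10), Gjb5 was at least 17.4-fold above the glands when these are set to their mean floor per library. Without tumor 7 the tumor mean was 2.51 and the bound 11.6-fold, and the tumor median of 2.03 gave a bound of 9.38-fold. The log2 fold change on the log2(normalized cpm + 1) scale, which understates changes of such low genes, was 1.86 (SE 0.47, limma adjusted p = 0.00743) and 1.63 without tumor 7.

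The promoter windows of Gja4 and Gjb5 are shown because these genes lie close to each other and went in opposite directions. They are given 5′ to 3′ on the minus strand of GRCm38.p6 (RefSeq), at chr4:127313990-127314289 for Gja4 and at chr4:127358115-127358414 for Gjb5, and capitals mark a match to GGGCGG in Gja4, 79 bases before the start site, and to TATAAA on the other strand in Gjb5, 243 bases before it.
Gja4: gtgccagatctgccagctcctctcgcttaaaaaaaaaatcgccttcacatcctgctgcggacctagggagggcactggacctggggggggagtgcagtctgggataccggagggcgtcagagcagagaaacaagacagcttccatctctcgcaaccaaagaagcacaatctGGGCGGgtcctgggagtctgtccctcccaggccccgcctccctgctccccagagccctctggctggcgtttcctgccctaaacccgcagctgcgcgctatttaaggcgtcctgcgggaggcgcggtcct
Gjb5: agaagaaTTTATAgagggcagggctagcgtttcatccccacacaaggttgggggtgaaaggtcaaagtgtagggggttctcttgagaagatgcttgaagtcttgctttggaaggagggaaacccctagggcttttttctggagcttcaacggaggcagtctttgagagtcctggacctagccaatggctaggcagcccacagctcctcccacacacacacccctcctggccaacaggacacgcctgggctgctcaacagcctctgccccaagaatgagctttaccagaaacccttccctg
The window of Gja4 has a GC content of 62.0% and 16 CpG dinucleotides, and that of Gjb5 has 54.3% and 3. Neither holds TGANTCA or CTTTGAT.

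The squamous markers moved with Gjb5 between the groups. Of 10 such markers, 8 were higher in the tumors, Krt6a, Ivl and Krt10 among them, and they summed to 439 to 3526 normalized cpm in a tumor, with tumor 7 the highest, and to 17.1 to 40.5 in a gland. Ivl, the gene of involucrin in the cornified envelope, was at 0 in all 3 glands and at 6.62 to 43.1 in the tumors. Over the 10 tumors the squamous sum had an r of 0.70 and a rho of 0.70 with Gjb5, and an r of 0.64 without tumors 3 and 7. The r of Gjb5 with the endothelial sum was as high, at 0.71, so that the relation was not particular to the squamous markers. Tumor 7 was the highest tumor in this sum, in Gjb5 and in Gja1, and the part of the squamous cells in the level of Gjb5 was not tested.

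Gjc1 (Entrez 14615, chr11:102799477-102819686, minus strand) codes for Cx45, known from smooth muscle and the conduction system of the heart. It was lowest in tumor 1 with 2.04 normalized cpm, had a median of 3.86 and was highest in tumor 5 with 6.15, and the glands had 6.38, 10.4 and 5.85. The tumors lay below the glands with the exception of tumor 5. With 4.001 ± 1.26 (SD, n = 10) and 7.54 ± 2.47 (SD, n = 3), the log2 fold change was -0.78 (SE 0.25), which had an adjusted p of 0.0299 in limma but was under the 2-fold limit. Of 7 mural and smooth muscle markers, 2 (Myh11 and Cnn1) were lower in the tumors and none was higher, beside 10.1% of all listed genes lower. Rgs5, Pdgfrb, Cspg4, Notch3 and Des did not pass the test, with log2 fold changes of -0.90, -0.85, -0.56, -0.22 and -1.34. The 7 summed to 71.5 to 293 normalized cpm in a tumor and to 217 to 779 in a gland. Myh11 alone had 352, 413 and 52.2 in the glands. The part of mural cells in the level of Gjc1 was not tested.

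To compare the connexins with each other, levels were divided by the length of exon in kb. On this scale Gjb2 was at 60.4 to 411 normalized cpm per kb in the tumors and at 300, 398 and 100.1 in the glands, Gjb6 at 37.95 to 191 and at 107, 157 and 109, and Gja1 at 51.5 to 201 and at 12.5, 12.2 and 11.4. The other 4 members reached at most 8.77 in any library. The summed level per kb of the 7 connexins was 169 to 689 in the tumors and 429, 576 and 228 in the glands, so that the groups overlapped in it while they differed in its make-up. Gja1 made up between 9.41% and 51.7% of the sum in the tumors, on average 21.6% ± 13.3 (SD, n = 10), and 2.92%, 2.12% and 5.01% in the glands. All tumors lay above all glands in this share, and the highest tumors were tumor 7 and tumor 9 with 36.99%. The share of Gjb2 was 50.8% ± 9.03 (SD, n = 10) in tumors against 60.96% ± 14.8 (SD, n = 3) in glands, and that of Gjb6 was 25.6% ± 7.23 and 33.2% ± 12.5, and both overlapped between the groups. In 6 tumors and in glands 1 and 2 the order of the levels per kb was Gjb2, Gjb6, Gja1. Gja1 came second in tumors 3 and 4 and first in tumors 7 and 9, where the ratio of Gja1 to Gjb2 was 1.53 and 1.04, and in gland 3 Gjb6 came first and Gja1 last. This ratio had a median of 0.288 in the tumors and was 0.0418, 0.0307 and 0.114 in the glands. The exon lengths are those of the transcripts that RefSeq and GENCODE share, which for Gja1 is 3071 bases. With the exons of all GENCODE transcripts, 10257 bases for Gja1, its mean share was 8.76% in the tumors and 1.13% in the glands. With these lengths Gjb2 was above Gjb6 and Gjb6 above Gja1 in all libraries but tumor 7, where Gja1 was above Gjb6, and the ratio of Gja1 to Gjb2 in tumors 7 and 9 was 0.459 and 0.310.

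**Figure D4:**
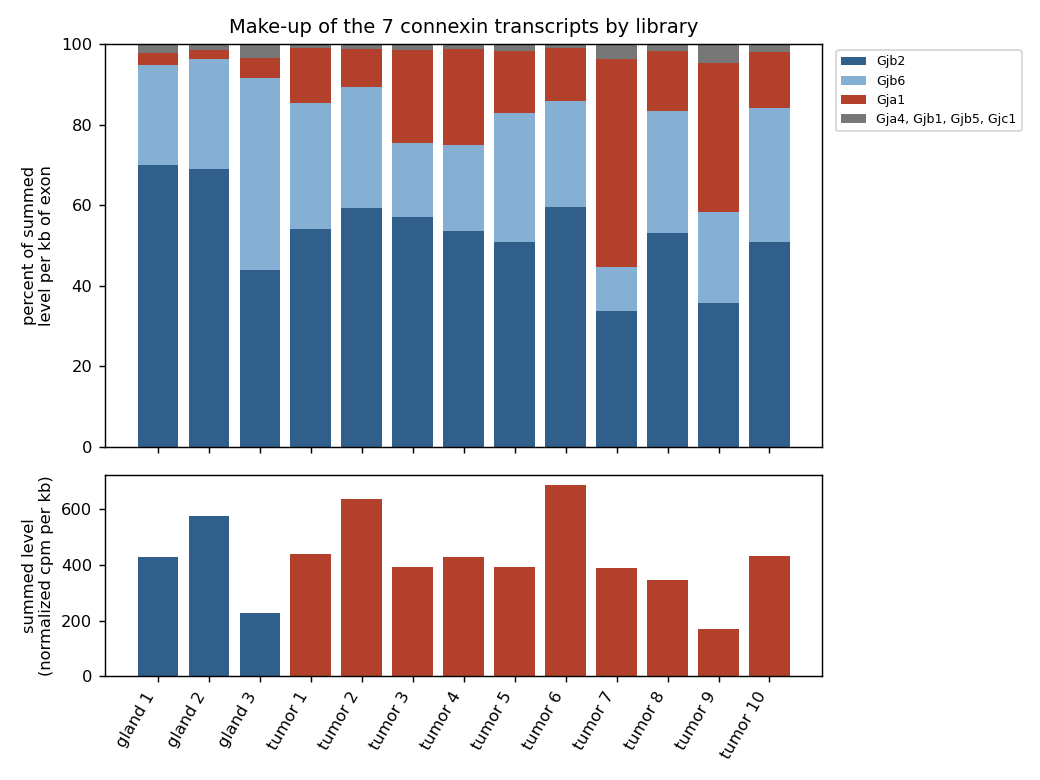
Stacked bars give the percent of the summed level per kb of exon that each connexin made up in each library, with the 4 rarest connexins together in grey, and the lower bars give the sum in normalized cpm per kb. Gja1 takes a larger share in all tumors than in the glands, and its share is largest in tumor 7 at 51.7%.

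Tumors of the same mouse were not alike in all connexins. Among tumors 8, 9 and 10, the highest value was 3.65 times the lowest for Gjb2, 3.80 times for Gjb6 and 4.75 times for Gjb5, but 1.21 times for Gja1. The first 3 of these spreads were set by tumor 9, the library with 27.4% of Rn45s reads. It had 145, 79.9 and 6.15 normalized cpm of Gjb2, Gjb6 and Gjb5. Tumors 8 and 10 had 446 and 530 of Gjb2, 221 and 304 of Gjb6, and 1.29 and 2.07 of Gjb5. Tumor 7, from a mouse with no other tumor here, was the highest tumor for 3 of the 7 connexins (Gja1, Gja4 and Gjb5), and tumor 9 was the lowest for 3 (Gja4, Gjb2 and Gjb6).

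Of 10 genes whose proteins bind connexins or take part in their turnover, all past the filter, 1 passed the test, beside 17.2% of all genes past the filter. This was Cav1, which codes for caveolin-1, a protein also known from endothelial cells and adipocytes, and was lower in the tumors at 33.7 to 80.2 normalized cpm against 368, 460 and 243 (log2 fold change -2.88, SE 0.27, limma adjusted p = 2.65e-06). Tjp1, the gene of the scaffold ZO-1 that binds Cx43, differed by 0.53 on the log2 scale (limma adjusted p = 0.0908), and Nedd4, a ubiquitin ligase of Cx43, had -0.42 (adjusted p = 0.520). Cnst, the gene of consortin, which takes part in the transport of connexins, had -0.59 (adjusted p = 0.0398) and was under the 2-fold limit. Panx1, the gene of a pannexin, which forms channels of a single membrane, was at 11.4 to 19.5 normalized cpm in the tumors and 24.2, 20.2 and 22.1 in the glands, with a log2 fold change of -0.51 (adjusted p = 0.0381) under the 2-fold limit.

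The connexin genes are similar in sequence, and reads that match more than one of them could be counted for either. No stretch of 75 bases, the length of a read, was shared between the searched transcripts of any of the 7 connexins and those of any other gene. For Gja1 the search covered 1 transcript, and exons found only in its other transcripts were not searched.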

How the data were processed

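RNA-seq libraries of 10 tumors and 3 glands were compared. Per the study's methods, total RNA came from flash-frozen tissue, and the authors mapped 75 bp paired-end reads to mm10, made gene counts with featureCounts and scaled these with edgeR, while the strand setting is not given in the sources used here. The methods name the UNMC core facility and the labels also name Novogene, and no batch could be assigned. The deposited signal values are counts of reads that the authors scaled by an effective size of each library. Read counts were recovered from them, and 100% of the values were whole within a tolerance of 0.02.

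Here, log2(normalized cpm + 1) was tested across all 13 libraries with limma (3.58.1 in R 4.3.3, trend, Benjamini-Hochberg), with condition as the only term and the filter of the methods, which left out 3418 genes. The p-values take the 10 tumors as separate samples although they came from 6 mice. Count tests with edgeR 4.0.16 and DESeq2 1.42.0 on the recovered reads were alternatives, as were other scalings, pseudocounts, filters, mouse as a block, mouse means and each library left out. Coordinates are those of RefSeq GRCm38.p6, joined by Entrez ID, and exon lengths are from GENCODE. Promoter windows were matched for 6 of the 7 connexins, and those of Gja1, Gja4, Gjb2, Gjb5 and Gjb6 are described. The floors cover counting error only, whereas the SD and SE values hold variation between libraries. No 2 libraries appeared to be the same, with a smallest chi-square per gene of 20.4.

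The 7 connexins, the lists of other connexins, partners and cell type markers, and the tests were chosen with earlier results of these data known. The connexins were all described, in the other lists only examples were named, and the 3 genes most like Gja1, Gjb2 and Gjb6 were those with the highest Pearson r over the tumors. Shares of the summed level were taken over the 7 connexins. Some genes that these rules name are not reported here.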

Additional observations from a re-analysis of the deposited data

Results flagged for a closer look

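Among 13 groups of tumor values examined, 3 had a highest value that stood further from the next than Dixon's 95% limit for its group. These were Gja1 in tumor 7 with 617.6 normalized cpm (the next tumor had 314), Gjb5 in tumor 7 with 15.1 (next 6.15) and Gjb1 in tumor 10 with 6.52 (next 3.43). Chance gives about 1 in 20 where values are normally distributed and groups are separate. The values here were on the linear scale, and some groups were shares or a sum of the same connexins. Tumor 7 was also the highest tumor in the sums of the squamous and of the basal and myoepithelial markers, and the part of these cells in its connexin levels was not tested. The value of Gjb1 in tumor 10 rests on 44 reads, and without this tumor the log2 fold change of Gjb1 was 0.90 and no longer past the 2-fold limit.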

How the results depend on the processing

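Gja1 stayed higher past the test under all 27 alternatives, with a log2 fold change between 2.42 and 4.84. With library size alone, which moved the median of all genes to 0.33, Gja4 was at -0.84 and not called, Gjb2 and Gjb6 turned to 0.16 and 0.035, 0 members were lower, and 1864 genes were higher and 495 lower. Scaled to the pan-epithelial genes (median of all genes -0.20), Gjb1 was at 0.89, and it was at 0.88 over mouse means, both under the 2-fold limit. Scaled to the endothelial genes, which moved the median of all genes to 2.15, Gja4 turned to 0.76, Gjb2 to 2.13, Gjb6 to 1.99 and Gjc1 to 1.05, 6 members were higher and 0 lower, and 11052 genes were higher and 49 lower. With a pseudocount of 5, Gja4 was at -0.72, Gjb1 at 0.41 and Gjb5 at 0.69, 1 member was higher and 0 lower, and Gja5 was at 0.67 and not called. Without the filter 1538 genes were lower, and 1478 with a filter on a mean above 1. edgeR and DESeq2 gave log2 fold changes of 5.45 and 5.69 for Gjb5 and of 1.95 and 1.96 for Gjb1, and a pseudocount of 0.25 gave 3.27 for Gjb5. With exons of all transcripts the mean share of Gja1 was 8.76% in the tumors and 1.13% in the glands, and that of Gjb2 in the tumors was 63.7%. The cause of these changes was not tested.

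Leaving out each library in turn gave log2 fold changes of 2.48 to 2.70 for Gja1, -1.22 to -0.99 for Gja4, 0.90 to 1.11 for Gjb1, -0.76 to 0.23 for Gjb2, 1.63 to 1.95 for Gjb5, -0.40 to -0.11 for Gjb6 and -0.92 to -0.55 for Gjc1. Gjb2 turned without tumor 9, gland 1 or gland 2 (0.03, 0.03 and 0.23). Between 2 and 3 members were higher and 0 to 1 lower, and 977 to 1506 genes were higher and 659 to 1121 lower.

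Tumors and glands 1 to 3 share numbers but not mice, and the deviations of same-numbered libraries correlated at -0.58, 0.04 and -0.66, so that the numbers do not pair them. With the replicate block on these 6 libraries, Gja4 was at -1.19 (limma adjusted p = 0.103) and Gjb1 at 0.98 (0.159), neither called, Gjb2 and Gjb6 turned to 0.25 and 0.020, 0 members were lower, and 350 genes were higher and 179 lower. Without the block the same libraries, an alternative chosen after seeing the data, gave -1.19 for Gja4 (limma adjusted p = 0.0179), which was called lower. Gjb1 was at 0.98, again not called, Gjb2 at 0.25 and Gjb6 at 0.020, and 758 genes were higher. The length over all exons was likewise chosen after seeing the data. Deviations of tumors and glands with unlike numbers correlated too, from -0.70 (tumor 4 and gland 3) to 0.70 (tumor 9 and gland 3). The part of such a shared pattern in the correlations over the tumors was not tested.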
